A study of Rattus norvegicus with 4 samples.

Results

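The G1 cyclins, their kinases and a pair of kinase inhibitors were followed in HSC-T6 cells treated with ginsenoside Rk1 and in untreated HSC-T6 cells. The 10 genes were the rows of the deposited count table whose symbol is Ccnd1, Ccnd2, Ccnd3, Ccne1, Ccne2, Cdk2, Cdk4, Cdk6, Cdkn1b or Cdkn2c, out of 32883 genes in the table. Each symbol stood on 1 gene identifier. HSC-T6 is a rat hepatic stellate cell line, a model of the liver cells that lay down collagen, and is known to have been immortalised with a viral large T antigen, a protein that binds the retinoblastoma family. Ginsenoside Rk1 is a saponin of processed ginseng. RNA sequencing gave 2 libraries of cells treated with the agent that the sample labels write as GRK1 and the series title as ginsenoside RK1, and 2 libraries of cells with no treatment. Dose, exposure time and vehicle are not in the labels. Nor do the labels say whether replicate libraries were grown separately, so every p-value reflects variation between libraries that could be technical alone.

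Passage from G1 into S phase is driven by cyclins that switch on cyclin-dependent kinases (CDKs). D cyclins are made in response to growth signals and pair with CDK4 and CDK6, and E cyclins follow and pair with CDK2. Both kinds of complex phosphorylate the retinoblastoma protein and so release E2F transcription factors, which switch on genes of DNA synthesis. The inhibitor p27, encoded by Cdkn1b, binds cyclin-CDK complexes, and the inhibitor p18, encoded by Cdkn2c, binds CDK4 and CDK6. Activated stellate cells divide as well as making matrix, and cyclin D1 is a common readout of that division.

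Ccnd1 and Cdk6 were lower with Rk1, and the other 7 tested genes of the set were not called in either direction. These 2 of 9 stand beside 22.0% of all tested genes called in either direction and 10.5% called lower. Ccnd1 fell to 0.657 of its untreated level and Cdk6 to 0.735, while Ccnd3, both E cyclins, Cdk2 and Cdkn1b were at 0.993 to 1.04 times theirs. Ccnd2 was almost silent. The fall of Ccnd1 was called in all 13 alternative fits and at an adjusted p under 0.01, and that of Cdk6 was lost whenever any 1 of the 4 libraries was left out.

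Total counts were 18008586 and 18125005 in the Rk1 libraries and 20430930 and 18175053 in the untreated libraries. Levels are in CPM, counts relative to the scaled library total, with 2 libraries per group throughout. Of 32883 genes, 12316 were abundant enough to be tested, and 9 of the 10 genes were among them. The stellate identity rests on mesenchymal genes, with Vim, Col1a1, Col3a1 and Sparc abundant in all 4 libraries. Pdgfra was at 87.6 and 88.5 CPM with Rk1, against 96.6 and 95 CPM untreated. Pdgfrb was at 25.5 and 28.5 CPM with Rk1, against 30.3 and 36.7 CPM untreated. Des was low, at 7.45 and 6.64 CPM with Rk1 and 5.86 and 5.05 CPM untreated. Lrat and Reln, which mark quiescent stellate cells, were at 0 counts in each library and Thy1 at 0 to 2 counts. The summed level of the 10 mesenchymal markers was 14400 to 14500 CPM with Rk1 and 21100 to 22200 CPM untreated. Hepatocyte markers summed to 0.223 to 0.329 CPM with Rk1 and 0.246 to 0.330 CPM untreated over 6 genes, with Ttr and Cyp2e1 at 0. Macrophage markers summed to 1.65 to 1.95 CPM with Rk1 and 1.13 to 1.70 CPM untreated over 6 genes, with Ptprc, Cd163 and Marco at 0, and the 4 listed endothelial markers stayed under 1 CPM each. The 5 epithelial markers summed to 2.80 to 2.95 CPM with Rk1 and 7.53 to 9.45 CPM untreated, and 4 of them, all but Sox9, were under 1 CPM. The part of the mesenchymal and epithelial sums in the results was not tested. In RNA from whole cultures, fewer cells in G1 or S phase and less of a transcript per cell cannot be told apart.

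The promoters of 6 of the 10 genes were found by symbol in the RefSeq table on GRCr8, as windows from 250 bases before to 50 after the start of the gene. No window was found under the symbols Ccnd1, Ccnd2, Ccne2 or Cdk6, so neither gene called lower could be examined. Those of Cdk4 and Ccnd3 are shown because these genes encode the most abundant G1 kinase and the expressed D cyclin that was not called. CACGTG, the E-box to which MYC and its antagonists bind as partners of MAX, is in capitals in the first. GGGCGG, the GC box bound by SP1, and TGACG, which forms part of the cAMP response element, are in capitals in the second, on either strand.
Cdk4, chr7:64771203-64771502, plus strand, GRCr8: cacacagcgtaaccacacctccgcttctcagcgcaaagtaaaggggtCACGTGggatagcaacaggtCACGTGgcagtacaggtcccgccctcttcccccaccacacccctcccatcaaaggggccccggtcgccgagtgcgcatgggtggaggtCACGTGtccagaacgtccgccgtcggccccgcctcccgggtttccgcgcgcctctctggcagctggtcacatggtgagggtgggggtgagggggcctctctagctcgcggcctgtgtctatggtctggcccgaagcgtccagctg
Ccnd3, chr9:20897826-20898125, minus strand, GRCr8: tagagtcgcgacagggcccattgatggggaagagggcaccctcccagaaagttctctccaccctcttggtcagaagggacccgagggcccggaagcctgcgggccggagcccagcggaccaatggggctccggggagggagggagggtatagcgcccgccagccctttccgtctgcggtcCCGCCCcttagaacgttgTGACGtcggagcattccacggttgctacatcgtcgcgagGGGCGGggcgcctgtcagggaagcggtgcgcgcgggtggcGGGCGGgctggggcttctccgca
CACGTG reads the same on both strands and occurred 3 times in the Cdk4 window. Of 33469 promoter windows of the same length, 6.42% held it and 19 (0.0568%) held it at least 3 times. That cutoff of 3 was set from the Cdk4 window itself. It was absent from the windows of Ccnd3, Ccne1, Cdk2, Cdkn1b and Cdkn2c. GGGCGG occurred 3 times in the Ccnd3 window, 4 times in that of Cdk2 and 3 times in that of Ccne1. It occurred 1 time each in those of Cdk4, Cdkn1b and Cdkn2c, and 33.1% of all windows held it at least 1 time. TGACG occurred 1 time each in the windows of Ccnd3, Cdk2 and Cdkn1b, and 21.2% of all windows held it at least 1 time. CCAAT occurred 1 time each in the windows of Ccnd3 and Cdk2 and 2 times in that of Cdkn1b, and 37.5% of all windows held it. The E2F sites TTTGGCGC and TTTCCCGC had 0 matches in each of the 6 windows, beside 0.493% and 0.974% of all windows that held them. These are matches of letters, with no measurement of binding.

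**Figure D1:**
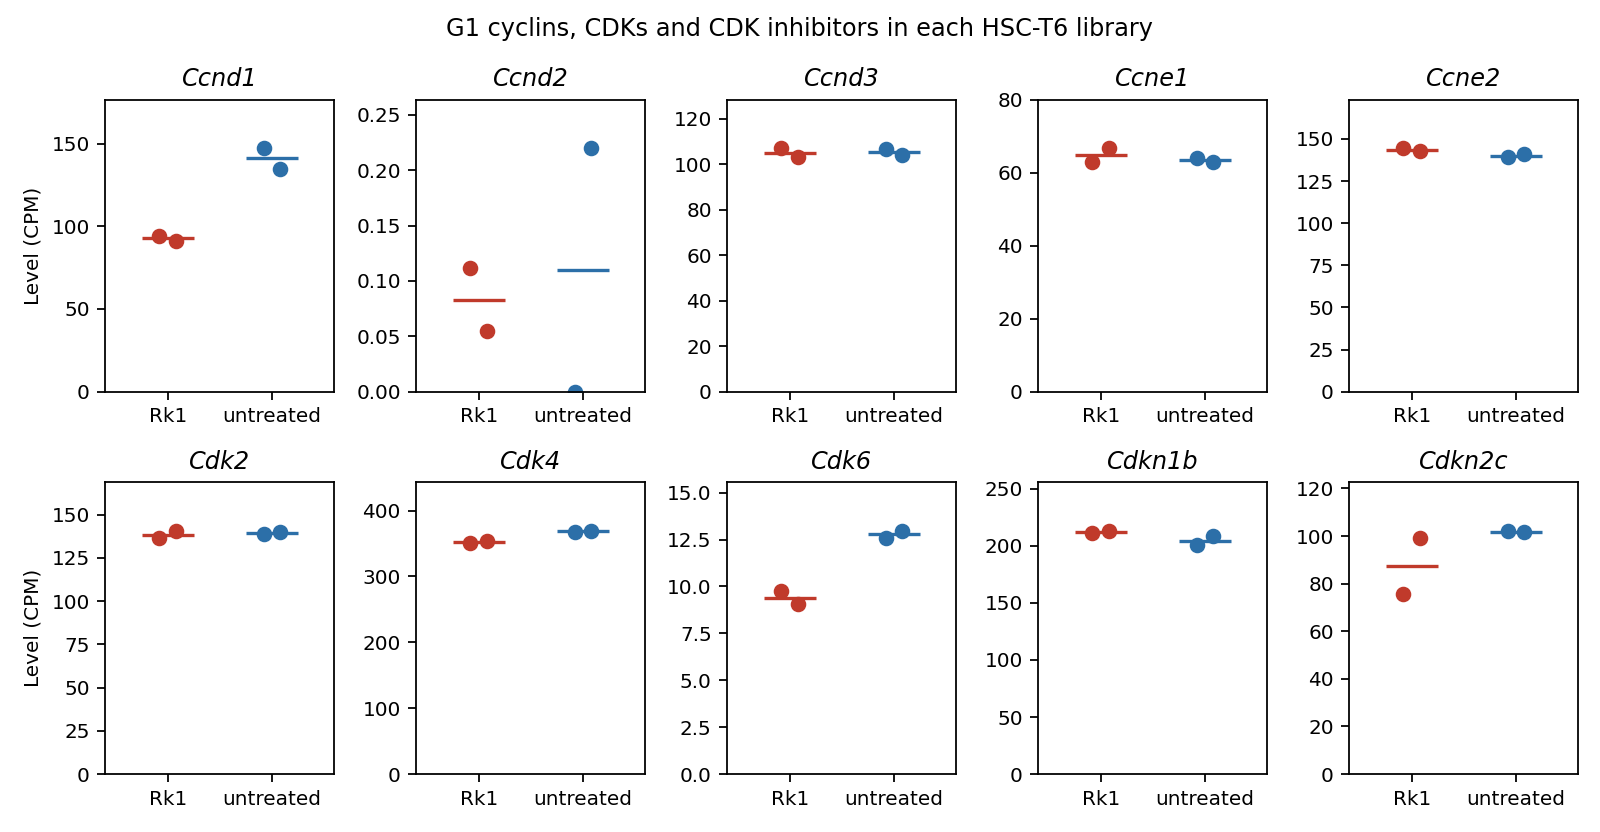
Level of each of the 10 genes in CPM (vertical axes, each from 0), with Rk1 libraries in red and untreated libraries in blue. Points are libraries and lines are group means of 2. The Rk1 libraries sit at 94.2 and 91.2 CPM for Ccnd1, below the untreated libraries at 147 and 135 CPM, and below them for Cdk6 as well.

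Of the D cyclins, Ccnd1 fell with Rk1, Ccnd3 was not called and Ccnd2 was barely detected. Ccnd1 (ENSRNOG00000020918, chromosome 1 at 218090750 to 218100325 in Rnor_6.0, minus strand) encodes cyclin D1, the D cyclin most tied to growth factor signals. It was at 94.2 and 91.2 CPM in the Rk1 libraries, against 147 and 135 CPM in the untreated libraries. Both Rk1 libraries lay below both untreated ones. The group means were 92.7 ± 2.1 CPM with Rk1 and 141 ± 8.6 CPM untreated (SD), a log2 fold change of -0.61 ± 0.06 (SE) with an adjusted p of 0.000484 in edgeR's quasi-likelihood test, and its 95% interval ran from -0.74 to -0.47. Of the 12316 genes tested, 548 had a lower log2 fold change, which places Ccnd1 at percentile 4.45. Over the 13 alternative fits the adjusted p was between 4.48e-12 and 0.00105.

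Ccnd3 (ENSRNOG00000050258, chromosome 9 at 15404822 to 15410943, minus strand) encodes cyclin D3, which pairs with the same kinases. It was at 107 and 103 CPM with Rk1, against 107 and 104 CPM untreated, and the groups overlapped. The log2 fold change was -0.01 ± 0.05 (adjusted p = 0.933), with a 95% interval from -0.12 to 0.10, so a fall of the size seen for Ccnd1 lies outside it. Ccnd2 (ENSRNOG00000057710, chromosome 4 at 159674885 to 159697207, minus strand) encodes cyclin D2. It had 2 and 1 counts in the Rk1 libraries, against 0 and 4 counts in the untreated libraries. A count of 3 corresponds to 0.148 to 0.167 CPM here, so a difference in Ccnd2 was not detectable at this depth, and the gene did not pass the filter on low counts.

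The ratio between both expressed D cyclins was lower in each Rk1 library than in each untreated one. For each Ccnd3 count there were 0.880 and 0.885 Ccnd1 counts in the Rk1 libraries, against 1.38 and 1.29 in the untreated libraries. A ratio within a library does not depend on how libraries are scaled. Its log2 was -0.18 ± 0.01 with Rk1 and 0.42 ± 0.06 untreated (SD), a difference of -0.60, and the same difference taken from the 2 fitted fold changes was -0.60 ± 0.07 (SE, with the genes taken as independent; 95% interval -0.77 to -0.43). The exact permutation test over the 4 libraries, two-sided, gave p = 0.333, which is the smallest it can give with 2 against 2 (0.389 after adjustment over the 7 ratios computed). The 6 ratios other than Ccnd1 over Ccnd3 were chosen after values were seen, and none was formed with Ccnd2 because 1 library held 0 counts of it. Ccnd1 made up 46.8% (exact 95% interval 45.1 to 48.4) and 46.9% (45.3 to 48.6) of all D cyclin counts with Rk1, against 57.9% (56.5 to 59.3) and 56.4% (54.9 to 57.9) untreated, and Ccnd2 was at most 0.0919%. The intervals cover counting error only. Per exon length, where Ccnd1 counts less because its exons span 3809 bases against 1911 for Ccnd3, the Ccnd1 share was 30.6% and 30.7% with Rk1, against 40.8% and 39.3% untreated. Ccnd1 was thus the more counted of the pair untreated and the less counted with Rk1, while per length Ccnd3 was the higher in all 4 libraries.

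**Figure D2:**
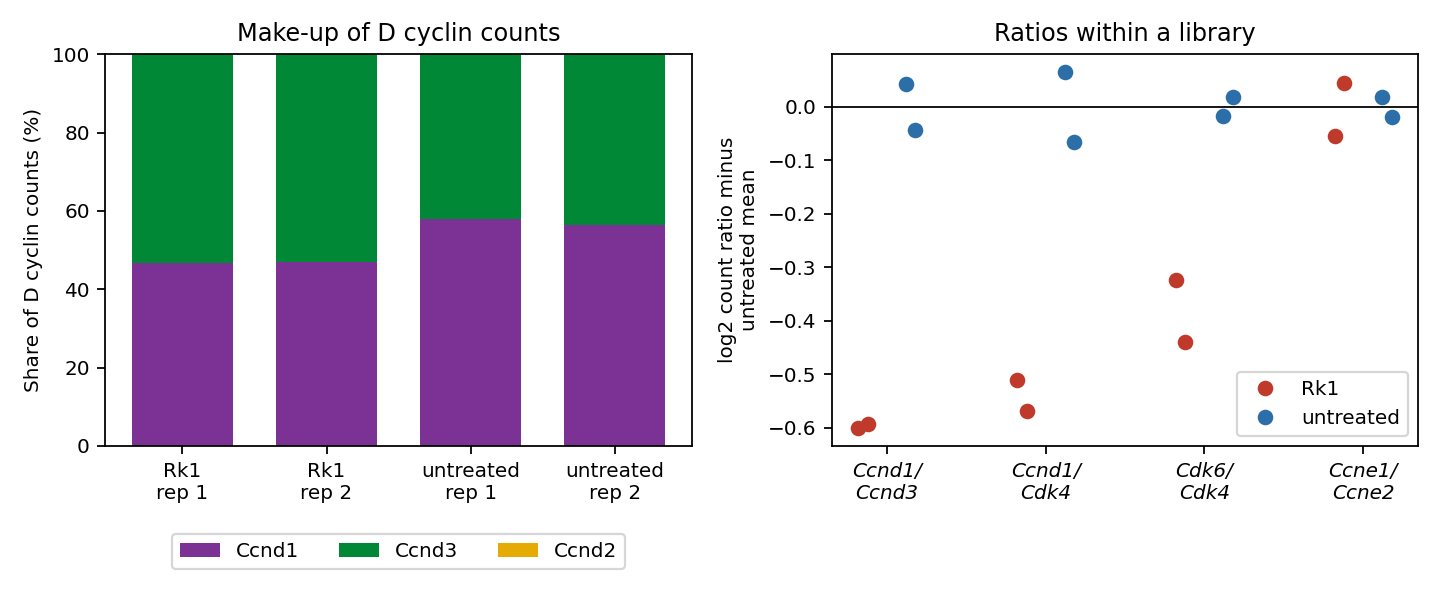
Left, the share of D cyclin counts (%) held by Ccnd1, Ccnd3 and Ccnd2 in each library, with Rk1 libraries before untreated ones. Right, log2 count ratios of 4 gene pairs in each library minus the untreated mean, with Rk1 in red and untreated in blue. Ccnd1 holds 46.8% and 46.9% of the counts with Rk1 and 57.9% and 56.4% untreated, Ccnd2 is too small to see, and the ratio of Ccne1 to Ccne2 overlaps between groups.

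Neither E cyclin was called, and both stayed close to their untreated level. Ccne1 (ENSRNOG00000014786, chromosome 1 at 94485832 to 94494980, minus strand) and Ccne2 (ENSRNOG00000008055, chromosome 5 at 24434872 to 24446406, plus strand) encode the cyclins that activate CDK2 late in G1. Ccne1 was at 63.1 and 66.7 CPM with Rk1, against 64.1 and 63.0 CPM untreated (log2 fold change 0.03 ± 0.05, adjusted p = 0.723). Ccne2 was at 144 and 143 CPM with Rk1, against 140 and 141 CPM untreated (0.03 ± 0.04, adjusted p = 0.615). The groups overlapped for Ccne1, and for Ccne2 the Rk1 libraries lay slightly above. The 95% intervals ran from -0.09 to 0.15 for Ccne1 and from -0.07 to 0.13 for Ccne2. There were 0.437 and 0.468 Ccne1 counts per Ccne2 count with Rk1, against 0.459 and 0.448 untreated, and these overlapped. Ccne2 shares 521 bases with Ints8 on the opposite strand, so some of its reads could belong to either gene.

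Among the kinases, Cdk6 was lower with Rk1, and Cdk4 and Cdk2 were not called. Cdk6 (ENSRNOG00000009258, chromosome 4 at 27785647 to 27966398, minus strand) was at 9.73 and 9.05 CPM with Rk1, against 12.6 and 13.0 CPM untreated. Both Rk1 libraries were below both untreated ones. The log2 fold change was -0.44 ± 0.10 (adjusted p = 0.0218), with a 95% interval from -0.69 to -0.20, and it rested on 165 to 256 counts per library. DESeq2 did not call it (adjusted p = 0.136), and the adjusted p was 0.0569 without Rk1 replicate 1, 0.101 without Rk1 replicate 2, 0.0534 without untreated replicate 1 and 0.0731 without untreated replicate 2.

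Cdk4 (ENSRNOG00000025602, chromosome 7 at 70349863 to 70352418, plus strand), the gene with 3 E-boxes in the window shown, was at 351 and 354 CPM with Rk1, against 368 and 369 CPM untreated. The libraries did not overlap, but the difference was small (log2 fold change -0.06 ± 0.04, adjusted p = 0.286, 95% interval -0.16 to 0.03). Cdk4 shares 168 bases with Tspan31 on the opposite strand. Per exon length Cdk4 stood at 387 ± 1.9 CPM per kb with Rk1 and 404 ± 1.0 untreated, and Cdk6 at 6.28 ± 0.32 with Rk1 and 8.55 ± 0.17 untreated. Cdk4 therefore held 98.3% and 98.5% of the summed per-length level of these kinases with Rk1, and 98.0% and 97.9% untreated. Cdk2 (ENSRNOG00000006469, chromosome 7 at 3124954 to 3132457, minus strand), the partner of the E cyclins, was at 136 and 141 CPM with Rk1, against 139 and 140 CPM untreated. Its groups overlapped (log2 fold change -0.01 ± 0.04, adjusted p = 0.895, 95% interval -0.11 to 0.09).

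Of the inhibitors, neither Cdkn1b nor Cdkn2c was called. Cdkn1b (ENSRNOG00000007249, chromosome 4 at 168689163 to 168693964, plus strand), which encodes p27, was at 211 and 213 CPM with Rk1, against 200.5 and 208 CPM untreated (log2 fold change 0.05 ± 0.04, adjusted p = 0.426, 95% interval -0.05 to 0.16). Its Rk1 libraries lay just above the untreated ones. Cdkn2c (ENSRNOG00000008956, chromosome 5 at 129347732 to 129352886, minus strand), which encodes p18, was at 75.8 and 99.0 CPM with Rk1, against 102 and 102 CPM untreated. One Rk1 library was far below the other 3, which lay close together. The log2 fold change was -0.22 ± 0.11 (adjusted p = 0.19), and it rested on that library, at -0.04 (adjusted p = 0.696) without Rk1 replicate 1 and -0.43 (adjusted p = 0.00204) without Rk1 replicate 2. With p27 almost level, the Ccnd1 count per Cdkn1b count was 0.446 and 0.428 with Rk1, against 0.734 and 0.647 untreated.

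**Figure D3:**
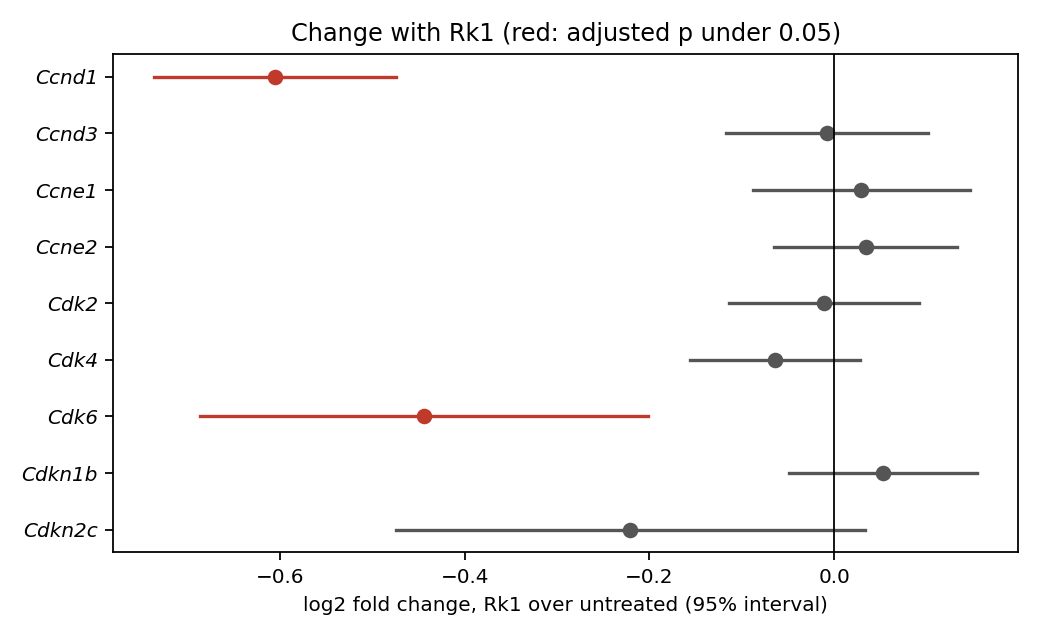
Log2 fold change of Rk1 over untreated for the 9 tested genes (points) with 95% intervals from edgeR's fit (lines). Red marks an adjusted p under 0.05. The intervals of Ccnd1 (-0.74 to -0.47) and Cdk6 (-0.69 to -0.20) lie below 0 and the other 7 cross it.

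Of the 9 tested genes, 2 were lower and 0 higher, beside 10.5% of all tested genes called lower, 11.5% called higher and 22.0% called in either direction. DESeq2 and limma-voom also called 0 of them higher, and 0 were higher at an unadjusted p under 0.05. The share of genes called, 2 of 9, is thus near that of all genes. The Rk1 and untreated libraries did not overlap for 6 of the 9, beside 63.0% of all tested genes. Rk1 lay below for 4, beside 30.9% of all tested genes, and above for 2, beside 32.1%. The median log2 fold change was -0.01, against 0.00 over all tested genes.

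Per exon length most of the genes kept the same order in both groups. Cdk4 was highest, followed by Cdkn1b at 121 ± 0.89 CPM per kb with Rk1 and 117 ± 3.2 untreated (SD). Cdk2 stood at 63.2 ± 1.4 CPM per kb with Rk1 and 63.6 ± 0.35 untreated. Cdkn2c stood at 61.0 ± 11.5 with Rk1 and 71.1 ± 0.34 untreated. Cdkn2c was thus above Cdk2 untreated, while with Rk1 these neighbours did not differ beyond their spread. Ccnd3 followed at 55.0 ± 1.5 with Rk1 and 55.2 ± 1.0 untreated, and Ccne2 at 47.4 ± 0.42 with Rk1 and 46.3 ± 0.30 untreated. The next places were exchanged between groups. Ccnd1 was at 24.3 ± 0.55 CPM per kb with Rk1 and 37.0 ± 2.3 untreated, while Ccne1 was at 33.2 ± 1.3 with Rk1 and 32.5 ± 0.40 untreated. By this measure Ccnd1 was thus above Ccne1 untreated and below it with Rk1, in both libraries of each group. The order of these genes rests on the exon length listed for each and was not tested. Cdk6 and Ccnd2 were lowest. Among tested genes, the mean per-length level over the 4 libraries was at percentile 98.4 for Cdk4, 71.7 for Ccnd1 and 33.2 for Cdk6.

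**Figure D4:**
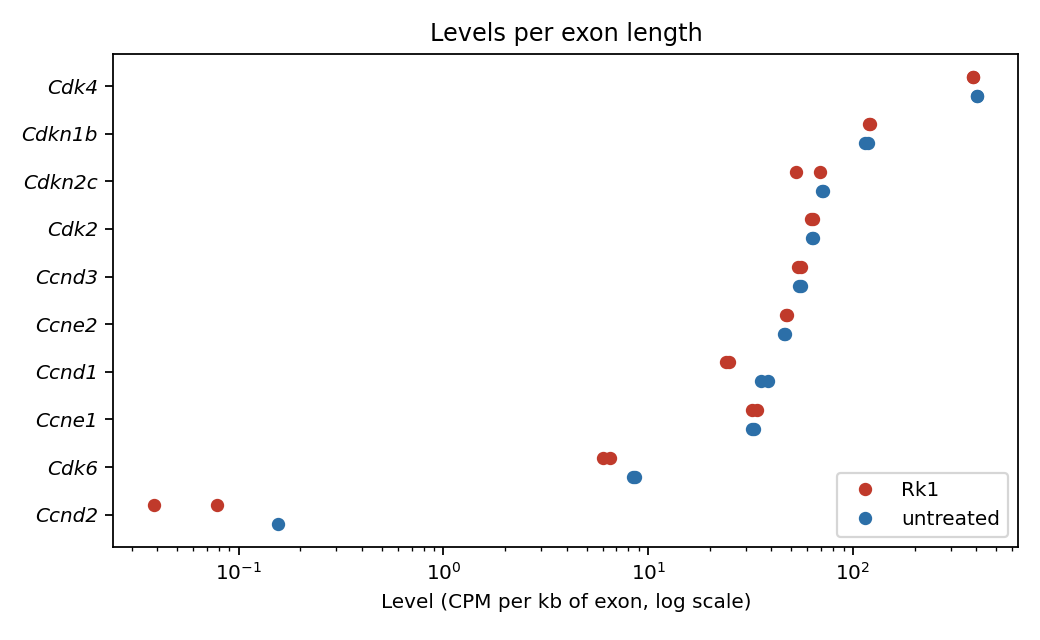
Level per kb of exon (CPM per kb, log axis) of the 10 genes in each Rk1 library (red) and untreated library (blue), ordered by the untreated mean. The untreated library with 0 counts of Ccnd2 cannot be drawn on a log axis. Ccnd1 lies below Ccne1 with Rk1 (24.3 and 33.2 CPM per kb) and above it untreated (37.0 and 32.5 CPM per kb).

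The genes most like Ccnd1 across the 4 libraries were sought among 4702 genes averaging 50 CPM or more, by the root mean square difference of log2 CPM centred on each gene's mean. Col1a1, the main chain of type I collagen, was nearest (0.015), at 8060 and 7964 CPM with Rk1, against 12478 and 11608 CPM untreated. C1qtnf1, which encodes a secreted protein of the C1q family, came next (0.0162), at 117 and 115 CPM with Rk1, against 187 and 171 CPM untreated. Both fell, by 0.59 ± 0.04 (adjusted p = 0.000104) and 0.63 ± 0.05 (adjusted p = 0.000372) on the log2 scale. Nearest to Ccnd3 were Ptpa, an activator of protein phosphatase 2A, and Ndel1, a partner of dynein, with differences of 0.00347 and 0.00474, and neither was called. With 4 libraries in 2 groups, likeness mostly ranks genes by the size of their change.

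The other genes of the pathway were taken from 8 lists holding 83 of 87 listed symbols found in the table, of which 80 were tested. Over all of them 11 were higher and 12 lower, or 13.8% and 15.0%, beside 11.5% and 10.5% of all tested genes, and the median log2 fold change was -0.01. Of these 23 calls, 9 held in all 13 alternative fits at the same threshold, namely Cdkn1a, Rb1, Mxi1, Ccng1 and Bax among those higher and Ccna2, Cdc45, Rrm1 and Tk1 among those lower. Of these, 7 also passed an adjusted p under 0.01, and Cdkn1a and Rrm1 did not. By DESeq2 5 were lower, and over all tested genes 853 were lower by DESeq2 against 1289 in the main fit. With a library left out, fewer of all tested genes were called as well. Leaving out a library gave 8 lower without Rk1 replicate 1, 7 without Rk1 replicate 2, 6 without untreated replicate 1 and 5 without untreated replicate 2. The number higher was 7 without untreated replicate 2.

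Of 4 other CDK inhibitors tested, 1 was higher and 1 lower, beside 11.5% and 10.5% of all tested genes. Their median log2 fold change was 0.16. Cdkn1a, which encodes the p53-inducible inhibitor p21, was at 114 and 131 CPM with Rk1, against 96.5 and 97.9 CPM untreated (0.33 ± 0.07, adjusted p = 0.0121). Cdkn2a, whose locus encodes p16 and ARF, fell to 152 ± 0.016 CPM with Rk1, against 170 ± 4.3 CPM untreated (-0.16 ± 0.04, adjusted p = 0.0371), a call lost with any 1 library left out and by DESeq2. Cdkn2b, the gene of p15, just missed the threshold at 0.22 ± 0.07 (adjusted p = 0.0508) and passed it in 9 of the 13 alternative fits, DESeq2 among them (adjusted p = 0.0496). Cdkn1c was at 0.09 ± 0.32 and was not called.

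Among 12 pocket protein, E2F and DP genes, 4 were higher and 2 lower, beside 11.5% and 10.5% of all tested genes. Their median was 0.07. Rb1, which encodes the retinoblastoma protein that cyclin D complexes phosphorylate, was at 38.4 and 40.5 CPM with Rk1, against 26.1 and 29.7 CPM untreated (0.50 ± 0.08, adjusted p = 0.00412). Its relative Rbl2, the gene of p130, rose by 0.28 ± 0.06 (adjusted p = 0.0131), a call lost without Rk1 replicate 1, and Rbl1, the gene of p107, by 0.17 ± 0.05 (adjusted p = 0.0408), a call that held in 6 of the 13 alternative fits and in none that left out a library. E2f6, a repressor that does not bind pocket proteins, rose by 0.29 ± 0.06 (adjusted p = 0.0144), a call lost without untreated replicate 2 and by DESeq2. E2f7 and E2f8, which encode atypical E2F repressors, fell by 0.24 ± 0.06 (adjusted p = 0.0329) and 0.23 ± 0.06 (adjusted p = 0.0362). Both calls were lost with any 1 library left out and by DESeq2. Rbl1 and E2f8 were named with their values known.

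E2F factors switch on a set of genes at S phase entry. Of 22 tested, 4 were lower and 1 higher, beside 10.5% and 11.5% of all tested genes, with a median of -0.06. Tk1, thymidine kinase, was at 316 and 313 CPM with Rk1, against 392 and 404 CPM untreated (-0.34 ± 0.04, adjusted p = 0.00154). The helicase factor gene Cdc45 fell by 0.26 ± 0.04 (adjusted p = 0.00632), the ribonucleotide reductase gene Rrm1 by 0.20 ± 0.04 (adjusted p = 0.01) and the helicase gene Mcm7 by 0.22 ± 0.05 (adjusted p = 0.013), the last not without Rk1 replicate 2. The gene that was higher was Rrm2, the other subunit of ribonucleotide reductase, at 0.21 ± 0.05 (adjusted p = 0.0179), which was not called without Rk1 replicate 1 or untreated replicate 2, and was named after its values were seen.

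Cyclins of later phases include those of S phase and mitosis. Of 9 A, B and F cyclin, CDK1, CDC25 and WEE1 genes tested, 3 were lower and 1 higher, with a median of -0.15. Among all tested genes, 10.5% were lower and 11.5% higher. Ccna2, the cyclin of S and G2 phases, was at 148 and 151 CPM with Rk1, against 174 and 176 CPM untreated (-0.22 ± 0.04, adjusted p = 0.00963). The mitotic cyclin gene Ccnb1 fell by 0.18 ± 0.04 (adjusted p = 0.0298), and Cdc25a, whose phosphatase activates CDK2, fell by 0.20 ± 0.05 (adjusted p = 0.0234). Both calls held only without Rk1 replicate 1 among the fits that left out a library, and neither gene was called by DESeq2. Wee1, whose kinase inhibits CDK1 and CDK2, rose by 0.22 ± 0.04 (adjusted p = 0.0133), but was not called without untreated replicate 2 or by DESeq2.

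Other genes activate, degrade or regulate the G1 machinery. Their calls stand beside 11.5% of all tested genes called higher and 10.5% called lower. Of 4 genes of the CDK-activating kinase and the CDK4 chaperone, 0 were higher, also at an unadjusted p under 0.05 and by DESeq2 and limma-voom, and 1 was lower. That was Mnat1, the assembly factor of the activating kinase (-0.20 ± 0.05, adjusted p = 0.0215), not called by DESeq2 and, without a library, called only without Rk1 replicate 1. Cdk7, Ccnh and Cdc37 were not called (adjusted p = 0.263, 0.643 and 0.213). Of 11 genes of the ubiquitin ligases that degrade cyclins and p27, Skp2, the ligase subunit that recognises p27, was lower (-0.19 ± 0.05, adjusted p = 0.0445), a call that held in 6 of the 13 alternative fits and in none that left out a library. In that list 0 were called higher by edgeR, DESeq2 or limma-voom, 1 was with robust dispersions, and 1 was higher at an unadjusted p under 0.05. Cul1, Ddb1 and Cks2 came next and were not called (adjusted p = 0.0696, 0.121 and 0.133). The list medians were -0.09 and -0.02.

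Among 8 FOXO and MYC regulators, 2 were higher and 0 lower, beside 11.5% and 10.5% of all tested genes. DESeq2, limma-voom and an unadjusted p under 0.05 also gave 0 lower. Mxi1, which encodes a MYC antagonist that binds the E-box, was at 101 and 99.3 CPM with Rk1, against 67.1 and 66.8 CPM untreated (0.58 ± 0.04, adjusted p = 0.000223). Foxo3, a factor that activates Cdkn1b, rose by 0.28 ± 0.06 (adjusted p = 0.0164), a call lost without Rk1 replicate 1, without untreated replicate 2 and by DESeq2. Foxo4 (adjusted p = 0.0995) and Max (adjusted p = 0.143) were not called. Myc, named with its values known, was at 20.4 and 30.5 CPM with Rk1, against 24.2 and 38.9 CPM untreated, and the groups overlapped (adjusted p = 0.41). Its libraries varied more within a group than between groups, and it was called lower without untreated replicate 1 and with a replicate block. Of 10 p53 target genes, 2 were higher and 0 lower, beside the same 11.5% and 10.5% of all tested genes. Again 0 were lower by DESeq2, by limma-voom and at an unadjusted p under 0.05. With robust dispersions 4 were higher, and without Rk1 replicate 2 the 2 genes Gadd45a and Sesn2, both stress-induced and named with their values known, were called lower. Ccng1, the gene of cyclin G1, rose by 0.40 ± 0.04 (adjusted p = 0.000981), and Bax, which promotes apoptosis, rose by 0.32 ± 0.05 (adjusted p = 0.00448). Mdm2, the gene of the p53 ubiquitin ligase (0.16 ± 0.05, adjusted p = 0.0526), and Tp53inp1 (0.24 ± 0.08, adjusted p = 0.0748) were not called. The medians were 0.07 and 0.13.

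**Figure D5:**
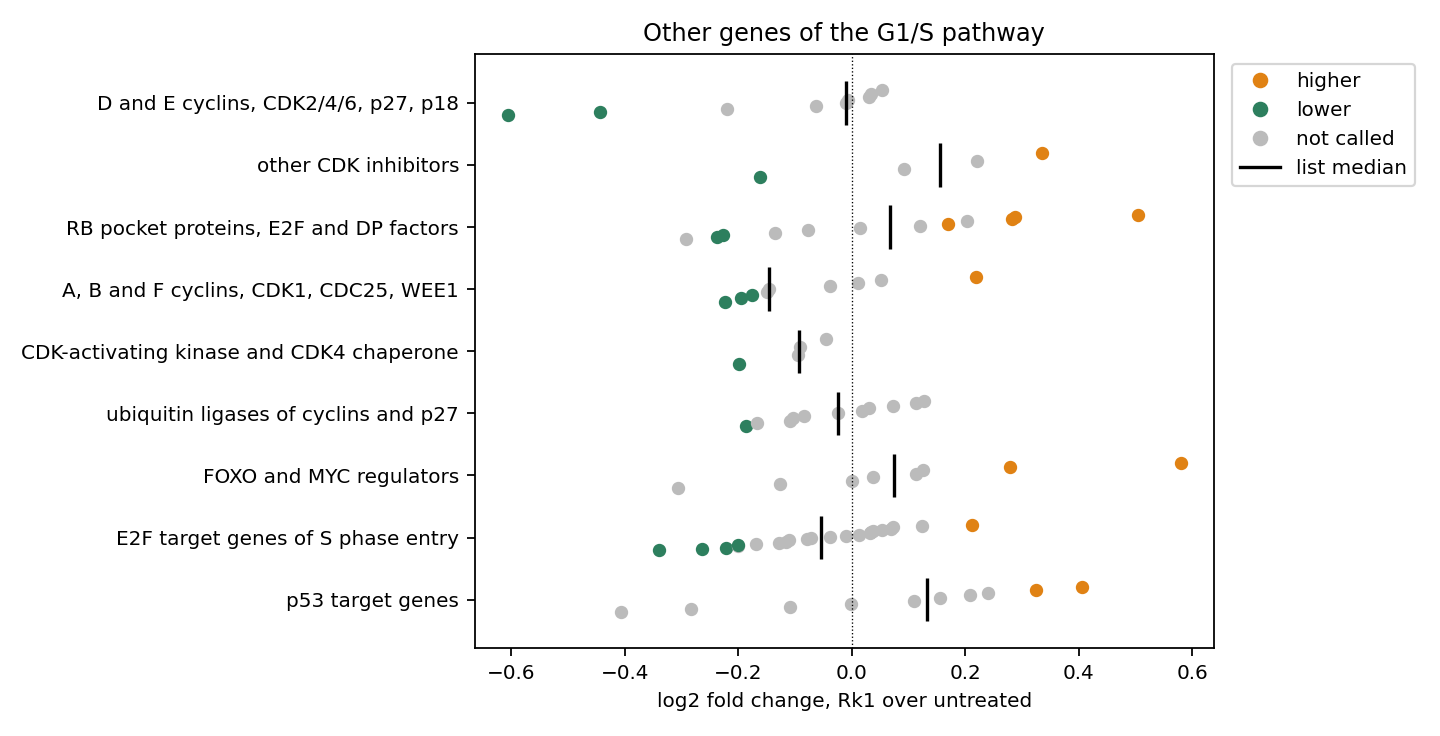
Log2 fold change of Rk1 over untreated for each tested gene of the G1 set (top) and of 8 lists of other pathway genes, with list medians as black lines. Orange genes were called higher, green lower and grey not called. Ccnd1 at -0.61 is the lowest point drawn and Mxi1 at 0.58 the highest.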

How the data were processed

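RNA-seq counts for 4 libraries were read from a single file in which the authors deposited raw, unnormalised counts by Ensembl gene, along with symbols and the authors' own exon lengths. Per the file headers, positions are on Rnor_6.0. The submitters' processing notes name HISAT2 and HTSeq. Neither their versions, nor the strand setting, nor how multi-mapping reads were treated is given in the sources used here, so reads of overlapping genes could be counted for either. Genes were filtered with filterByExpr (minimum count 10, minimum total 15) and scaled by TMM. The main test was edgeR 4.0.16's quasi-likelihood F-test in R 4.3.3 on all 4 libraries, two-sided, with treatment as sole term, 2 residual degrees of freedom, and Benjamini-Hochberg adjustment over all 12316 tested genes at a threshold of 0.05. The SE was taken as the absolute log2 fold change over the square root of F. CPM per kb is CPM over exon length. The members and lists were chosen with earlier results of these data known.

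Named genes were all members, the 4 or fewer genes of lowest adjusted p in every list, and the 2 genes most like each tested D cyclin. Cell type markers, overlapping neighbours and the genes stated above to be named with their values known were named too. Alternatives were DESeq2 1.42.0, limma-voom (limma 3.58.1), robust dispersions, 3 other scalings, 2 other filters, a stricter threshold, a replicate block and each library left out. With a library left out, the spread of its partner is taken from the other group. Counts of replicate libraries varied beyond sampling noise, with a chi-square of 4.52 per degree of freedom for Rk1 and 4.47 untreated, so none was a repeat deposit. Simulated counts were used to check the fit, with 200 changed genes averaging at least 100 counts. It recovered 20% of 1.2-fold changes, 88% of 1.5-fold changes and 100% of 2-fold changes, with 2 false calls among 156. Most changes of 1.2-fold were thus not called there. For 4 listed symbols no value is reported here. The RefSeq gene and promoter tables are on GRCr8, so no coordinates were carried between builds.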

Additional observations from a re-analysis of the deposited data

How the results depend on the processing

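The number of genes called was 2711 (1422 higher, 1289 lower). It was 1712 (859 and 853) by DESeq2, 1226 (665 and 561) at an adjusted p under 0.01, and 1795 to 2186 with a library left out (853 to 1160 higher and 902 to 1026 lower, the fewest in all without untreated replicate 2). With upper quartile scaling 1198 were higher and 1556 lower, so that 43.5% of calls were higher against 52.5%, and 10 and 16 of the other pathway genes were called. Of the G1 genes, 0 were called higher under any setting. Against 2 lower, Ccnd1 and Cdk6, 1 was lower by DESeq2 and 1 at the stricter threshold. Cdk6 was lost in every fit without a library, and Cdkn2c stood at -0.43 without Rk1 replicate 2. Ccnd1 was always among those lower, with log2 fold changes of -0.68 to -0.54 over the fits without a library. Of the other pathway genes 11 were higher and 12 lower. These counts were 8 and 5 by DESeq2, 4 and 3 at the stricter threshold, and 7 to 11 and 5 to 8 with a library left out. Among genes that were not called, the log2 fold change changed sign with a library left out for Ccnd3 (-0.036 to 0.020), Ccne1 (-0.011 to 0.069) and Cdk2 (-0.034 to 0.012). The Ccnd1 to Ccnd3 ratio differed by -0.64 to -0.55 on the log2 scale when a library was left out and by -0.60 with a count of 0.5 added. With the replicate number as a block 3220 genes were called, with 14 and 18 other pathway genes, and no call on a G1 gene changed. The p53 targets then had 4 higher and 2 lower, against 2 and 0, and 1 MYC regulator was lower against 0. The labels do not say whether same-numbered libraries were paired. The correlation of their deviations over genes was 0.0592, which cannot settle it because it rests on 1 difference per group. Single pathway genes called in the main test passed in as few as 6 of the 13 alternative fits (Rbl1 and Skp2). The median log2 fold change of all genes was -0.0263 with upper quartile scaling, its farthest from 0 among the scalings. Ccnd2 had 0 to 4 counts per library, and Cdk6 rested on few counts. The causes of these differences were not tested.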

Other observations

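Summed over Ccnd1, Ccnd2 and Ccnd3, the D cyclin level per exon length was 80.8 and 77.9 CPM per kb with Rk1, against 94.6 and 90.1 CPM per kb untreated. The E cyclins summed to 80.0 and 81.2 CPM per kb with Rk1, against 78.9 and 78.8 CPM per kb untreated. The sums of D and E cyclins were thus closer to each other in the Rk1 libraries than in the untreated ones, which was not tested.

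Some pathway genes differed between the libraries of a group. Myc was at 20.4 and 30.5 CPM in Rk1 replicates 1 and 2, against 24.2 and 38.9 CPM in untreated replicates 1 and 2. Sesn2, a stress-induced inhibitor of growth signalling, was at 48.1 and 85.3 CPM in Rk1 replicates 1 and 2, against 67.6 and 110 CPM in untreated replicates 1 and 2. Cdkn2c was lower in Rk1 replicate 1 than in Rk1 replicate 2, at 75.8 and 99.0 CPM, but level between the untreated replicates, at 102 and 102 CPM.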
